A study of Mus musculus with 6 samples.

Results

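The mouse Hox genes are homeobox transcription factor genes that lie in 4 chromosomal clusters, and they were compared here between mouse embryonic fibroblasts with and without an intact Lasp1 gene. Members were all genes whose symbol in the platform annotation is Hoxa, Hoxb, Hoxc or Hoxd followed by a number. This gave 38 genes, covered by 57 probes, out of 19057 genes with a probe that names 1 symbol. Where a gene had several probes, the one that was brightest on average stood for it. The cells were of the C57Bl/6NCr strain and were either wild type (Lasp1+/+, 3 arrays) or carried a disrupted Lasp1 gene on both chromosomes (Lasp1-/-, called knockout here, 3 arrays). LASP1 is an actin-binding protein of focal adhesions. Total RNA was labelled with biotin and hybridised to Illumina bead arrays. The labels name no embryonic age, no part of the embryo and no passage number, and they do not say whether the arrays of a genotype came from separate embryos or cultures. P-values therefore measure only how far these particular samples spread, and that spread may be technical.

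Hox proteins bind DNA through the homeodomain and give cells their identity along the body axis. Within a cluster the genes are numbered by paralog group, from the anterior groups, expressed first and closest to the head, to the posterior groups, expressed later and closest to the tail and in the distal limb. Genes with the same number in different clusters are paralogs with similar proteins, and the order of the genes along the chromosome follows the order of their expression domains. Fibroblasts in culture are known to keep part of the Hox pattern of the place they were taken from. Below, groups 1 to 3 are called anterior, groups 4 to 8 central and groups 9 to 13 posterior.

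Every array had a median probe intensity of 1000, and the upper quartile ran from 2018 to 2330. The arrays with the highest upper quartile were wild type replicate 2 and knockout replicate 1, and each of them also held the highest value of its genotype for 16 of 19 bright Hox genes. Bright means here a mean over the 6 arrays above 2000, which is 2 times the array median. Hoxd13, at 2005, and Hoxa9 stood just inside this limit and Hoxa4 and Hoxa13 just outside it. Lasp1 itself fell in all knockout arrays (log2 difference -1.50 ± 0.07 SE, limma adjusted p = 1.17e-05). All 8 fibroblast marker genes were bright.

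The promoters of 4 called Hox genes are shown first, because these members moved most in each direction among those with a promoter entry. RefSeq promoters (build GRCm38.p6) were found for 22 of the 38 genes, and for 7 of the 13 genes that passed the test. Hoxa2 (chr6:52164832-52164981, minus strand) and Hoxa5 (chr6:52204588-52204737, minus strand) rose, and Hoxd8 (chr2:74704465-74704614, plus strand) and Hoxd12 (chr2:74674863-74675012, plus strand) fell. Each stretch holds the 150 bases before the annotated start, 5′ to 3′ on the strand of the gene. Capitals mark the motifs TATAAA (the TATA box), CCAAT (bound by the factor NF-Y), TGATTNAT (a joint PBX and HOX site), TGACAG (a MEIS site) and TTTATG (a caudal-type site), searched on both strands, and matches that touch or overlap run together.
Hoxa2: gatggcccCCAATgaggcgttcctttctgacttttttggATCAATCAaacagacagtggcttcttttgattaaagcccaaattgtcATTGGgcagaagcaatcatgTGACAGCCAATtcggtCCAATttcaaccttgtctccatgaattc
Hoxa5: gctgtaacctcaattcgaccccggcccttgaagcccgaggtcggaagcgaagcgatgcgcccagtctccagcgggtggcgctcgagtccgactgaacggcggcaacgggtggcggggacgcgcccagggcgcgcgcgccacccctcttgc
Hoxd8: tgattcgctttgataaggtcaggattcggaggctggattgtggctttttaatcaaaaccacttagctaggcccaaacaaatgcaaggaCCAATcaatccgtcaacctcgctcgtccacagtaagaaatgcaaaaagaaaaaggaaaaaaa
Hoxd12: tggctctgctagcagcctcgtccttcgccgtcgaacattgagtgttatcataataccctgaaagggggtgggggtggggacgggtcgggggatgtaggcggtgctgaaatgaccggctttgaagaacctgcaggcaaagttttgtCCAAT
Over the 250 bases before the start, CCAAT was found in 14 of 24 Hox promoters and in 33.8% of all 32851 promoters of the table. TGATTNAT was found in 2 of 24 and in 2.8% of all, TGACAG in 2 of 24 and in 15.9%, TTTATG in 5 of 24 and in 10.8%, and TATAAA in 4 of 24 and in 12.4%. The Hoxa2 stretch holds CCAAT 4 times, with TGATTNAT and TGACAG once each, whereas the Hoxa5 stretch holds none of the 5 motifs. The Hoxd8 and Hoxd12 stretches hold CCAAT once each, so a CCAAT box is found both in genes that rose and in genes that fell. The median GC content of these windows was 58.6% in Hox genes (40.4% to 80.0%) and 52.4% in all promoters. A match is a description of the letters and not evidence of binding.

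In wild-type cells, 15 of the 38 Hox genes read above 2000 in all 3 arrays. The brightness of a probe depends on its sequence, so levels were set against the array median and not ranked between genes. The wild-type pattern held central genes of Hoxa (Hoxa5 and Hoxa7), Hoxb2 with the central genes Hoxb5, Hoxb6 and Hoxb7, the genes Hoxc6, Hoxc9 and Hoxc10, and 6 of the 9 Hoxd genes (Hoxd3, Hoxd8, Hoxd9, Hoxd10, Hoxd12 and Hoxd13). By class, 2 of 7 anterior, 7 of 15 central and 6 of 16 posterior genes passed this limit. Paralog group 1, the most anterior, had no such gene among its 2 measured members, paralog group 4 had none among 4, and paralog group 11 had none among 3. Hoxc6 stood far above the array median in wild type, with readings of 55873, 64731 and 58936. Hoxd13 and Hoxd12, known for patterning digits and the external genitalia, were above 2000 in every wild-type array, while Hoxc11, Hoxc12, Hoxc13, Hoxa10 and Hoxa11 read between 907 and 1275 there. Such readings lie near the array median and do not show that a transcript was missing.

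**Figure D1:**
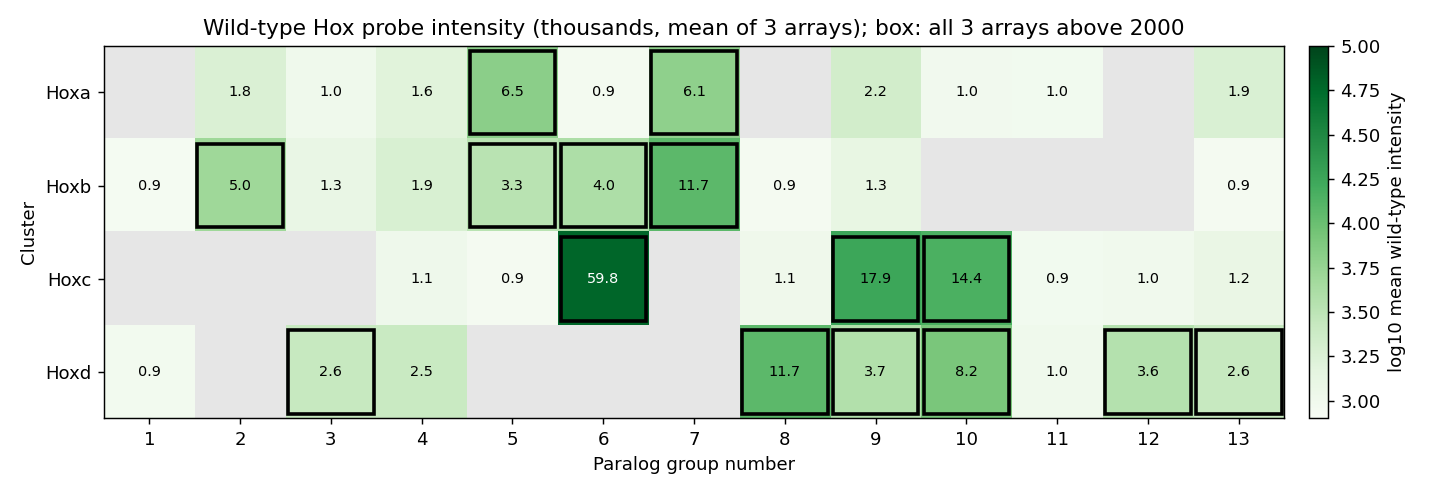
Mean wild-type probe intensity (divided by 1000, n = 3 arrays) of each Hox gene, with the cluster in rows and the paralog group number in columns; colour gives the log10 of the mean, grey cells hold no measured gene, and boxed cells read above 2000 in all 3 arrays. The 15 boxed genes are Hoxa5 and Hoxa7, Hoxb2 and Hoxb5 to Hoxb7, Hoxc6, Hoxc9 and Hoxc10, and 6 of the 9 Hoxd genes.

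Between genotypes, 9 Hox genes rose in knockout cells, 4 fell and 25 did not pass the test. The rises were Hoxa2 to Hoxa5 with Hoxa7 in the first cluster, Hoxb5 to Hoxb7 in the second and Hoxc6 in the third, and the falls were Hoxc10 and, in the fourth cluster, Hoxd8, Hoxd12 and Hoxd13. Of all 19057 genes 6.28% passed limma's test at an adjusted p under 0.05, 2.19% as rises and 4.08% as falls, against 23.7% and 10.5% of the Hox genes. Among genes with a mean over the 6 arrays above 2000 the shares were 4.11% and 8.72%, against 36.8% and 21.1% of the 19 bright Hox genes. The genotypes did not overlap in 18 of 38 Hox genes, 47.4%, against 21.3% of all genes, and in 14 of 19 bright ones, 73.7%, against 30.7% of all bright genes. The median log2 difference of the 38 genes was -0.03, close to the median of -0.02 over all genes. The 19 dim Hox genes, of which 17 did not pass, had a median of -0.02. The 19 bright ones had a median of -0.14, against -0.10 over all bright genes, with rises and falls on both sides of it.

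**Figure D2:**
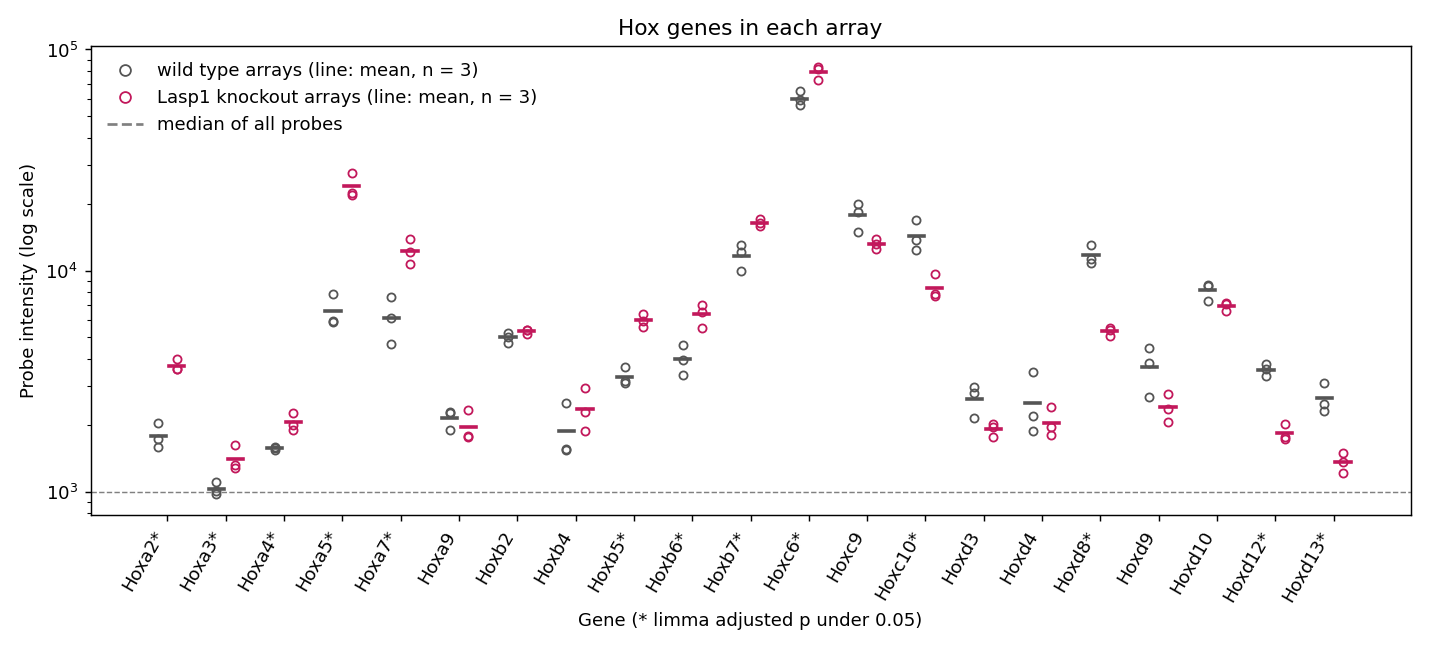
Probe intensity on a log axis for the 19 bright Hox genes and the dim called genes Hoxa3 and Hoxa4 in each of 3 wild-type and 3 knockout arrays, with a line at each mean and a dashed line at the array median of 1000. The knockout points of the 13 starred genes lie wholly above or wholly below the wild-type points.

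Hoxa5, which patterns the neck and upper thoracic skeleton and the lung, changed most of all Hox genes. Its wild-type arrays read 5854, 7876 and 5905, and its knockout arrays 27773, 22485 and 22105. The lowest knockout array was thus well above the highest wild-type array, and the mean rose from 6545 ± 1153 to 24121 ± 3168 (SD, n = 3 each). This was a 3.70-fold rise (log2 difference 1.89 ± 0.13 SE, limma adjusted p = 8.94e-05), at rank 34 of all genes by p.

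Hoxa2, which sets the identity of the hindbrain and the second pharyngeal arch, read 1729, 2053 and 1602 in wild type and 3978, 3594 and 3595 in knockout. The groups were separate, and the level rose 2.08-fold (1.06 ± 0.10, limma adjusted p = 0.000397). A second Hoxa2 probe read 1550, 1860 and 1575 against 4059, 3166 and 3512 and gave a like difference (1.10 ± 0.11). Hoxa7, a gene of the thoracic segments, read 4683, 7585 and 6124 in wild type and 13937, 10677 and 12176 in knockout. All knockout arrays were higher than all wild-type arrays, with a 2.03-fold rise (1.02 ± 0.17, limma adjusted p = 0.00709).

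The remaining rises in Hoxa were small and came from dim probes. Hoxa4 read 1542, 1581 and 1600 in wild type and 2272, 2009 and 1904 in knockout (0.39 ± 0.08, limma adjusted p = 0.0253). Hoxa3, a gene of the pharyngeal arches and the thymus, read 979, 1109 and 1006 in wild type, at the level of the array median, and 1636, 1277 and 1322 in knockout (0.45 ± 0.10, limma adjusted p = 0.038). The other 3 Hoxa3 probes differed by 0.06 to 0.13 and did not pass, and the mean over all 4 probes was 0.18 (limma adjusted p = 0.122, within a range of 0.00209 to 0.168 over its alternatives). The called Hoxa3 probe was designed on a cDNA clone record and the others on the curated transcript. In the RefSeq gene table the span of Hoxa3 runs over Hoxa4, Hoxa5 and Hoxa6, so overlapping transcripts cannot be told apart from the gene symbol. Hoxa6, which lies between Hoxa5 and Hoxa7, stayed at the array median in both genotypes (892, 919 and 939 against 1044, 935 and 870; 0.05 ± 0.08). The posterior Hoxa genes Hoxa9, Hoxa10, Hoxa11 and Hoxa13 had log2 differences of -0.13 to -0.26, and none passed. Hoxa9 was the only bright one of these, at 1902, 2270 and 2292 in wild type and 2337, 1765 and 1787 in knockout, with groups that overlapped. All 3 Hoxa9 probes gave similar small differences (-0.13 to -0.15). The second Hoxa10 probe differed by 0.06, and the other Hoxa13 probes by -0.005 and -0.05, and none of them passed.

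In Hoxb the rise was seen in 3 adjacent central genes. Hoxb5, which acts with its paralogs in the trunk, read 3120, 3665 and 3180 in wild type and 5947, 6396 and 5548 in knockout. The groups were far apart relative to their spread, with a 1.80-fold rise (0.85 ± 0.09, limma adjusted p = 0.000729). Hoxb6 read 3371, 4606 and 3952 against 7037, 5522 and 6529, a 1.61-fold rise (0.68 ± 0.13, limma adjusted p = 0.014). Hoxb7 read 9969, 13074 and 12092 against 17077, 15990 and 16487, a 1.42-fold rise (0.50 ± 0.10, limma adjusted p = 0.0198). Its second probe gave nearly the same value (0.51 ± 0.10), and in neither gene did the genotypes overlap. The difference thus became smaller from Hoxb5 to Hoxb7, and this order was not tested.

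Hoxb2 was bright and nearly level, at 4738, 5252 and 5037 in wild type and 5186, 5413 and 5390 in knockout (0.09 ± 0.07, limma adjusted p = 0.607). Hoxb4 read 1564, 2535 and 1550 against 2951, 1895 and 2289, and the genotypes overlapped (0.35 ± 0.21, limma adjusted p = 0.442). Hoxb3 was similar at 0.36 ± 0.16 (limma adjusted p = 0.269). Its other probes differed by -0.07 to 0.06 and did not pass, and the mean over all its probes was 0.08 (limma adjusted p = 0.647). Without wild type replicate 2 both Hoxb3, by its brightest probe, and Hoxb4 passed as rises, and Hoxb3 also passed with array weights. The last members of the cluster, Hoxb8, Hoxb9 and Hoxb13, and the first, Hoxb1, had log2 differences between -0.11 and -0.01, and all 4 were dim.

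Hoxc held both directions. Hoxc6, a thoracic and forelimb-level gene, read 55873, 64731 and 58936 in wild type and 83099, 81502 and 73059 in knockout. It rose 1.32-fold (0.41 ± 0.09, limma adjusted p = 0.0241). Hoxc10, a gene of lumbar levels and the hindlimb, read 12384, 16919 and 13839 in wild type and 9658, 7860 and 7665 in knockout, so all knockout arrays were lower. It fell 1.71-fold (-0.77 ± 0.13, limma adjusted p = 0.00826), and its second probe read 4198, 5149 and 4642 against 3232, 3092 and 2975 (-0.58 ± 0.09). Hoxc9, which lies next to Hoxc10 and specifies thoracic motor neurons, read 15001, 20090 and 18477 against 13893, 13230 and 12565. The groups were separate, and the value did not pass in the deposited scaling (-0.42 ± 0.11, limma adjusted p = 0.0547, with 0.0023 to 0.237 over its alternatives). The other 6 genes of the cluster were dim, with log2 differences of -0.19 to 0.00, and none passed.

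In Hoxd no gene rose at any position of the cluster. Hoxd8, expressed in the trunk and limb buds, read 10829, 13105 and 11243 in wild type and 5530, 5404 and 5071 in knockout, less than the lowest wild-type array by a wide margin. It fell 2.19-fold (-1.13 ± 0.09, limma adjusted p = 0.000153). Hoxd12 read 3331, 3604 and 3798 against 2030, 1727 and 1778, a 1.94-fold fall (-0.96 ± 0.09, limma adjusted p = 0.000341). Its second probe read 841 to 909 over all arrays, below the median, and did not pass (0.03 ± 0.06), and the mean of both Hoxd12 probes differed by -0.46, which passed. Hoxd13, the last gene of the cluster, read 2509, 2324 and 3109 against 1505, 1213 and 1371, also a 1.94-fold fall (-0.95 ± 0.12, limma adjusted p = 0.00184).

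The other Hoxd genes were lower or level. Hoxd3 read 2152, 2994 and 2788 in wild type and 1961, 2039 and 1774 in knockout, with separate groups (-0.45 ± 0.12, limma adjusted p = 0.0687). Hoxd9, a limb and lumbar gene, read 2689, 4498 and 3848 against 2778, 2080 and 2377, where 1 knockout array exceeded the lowest wild-type array (-0.59 ± 0.18, limma adjusted p = 0.0982). A second, dimmer Hoxd9 probe differed by -0.28 ± 0.09 and did not pass. Hoxd3 and Hoxd9 passed when the arrays were quantile normalized, weighted by quality or fitted with a robust trend, and also when wild type replicate 1 was left out. Hoxd10, a gene of the limb and lumbar levels, read 7330, 8588 and 8535 against 7138, 6587 and 7090, separate but close (-0.23 ± 0.09, limma adjusted p = 0.177). Hoxd4 read 1890, 3490 and 2211 against 2413, 1806 and 1961, and its groups overlapped (-0.26 ± 0.20, limma adjusted p = 0.607). Hoxd1 and Hoxd11 lay near the array median with differences of 0.05 and 0.04. Hoxd11 sits between Hoxd10 and Hoxd12, and both of its probes were dim, so a level could not be followed there.

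**Figure D3:**
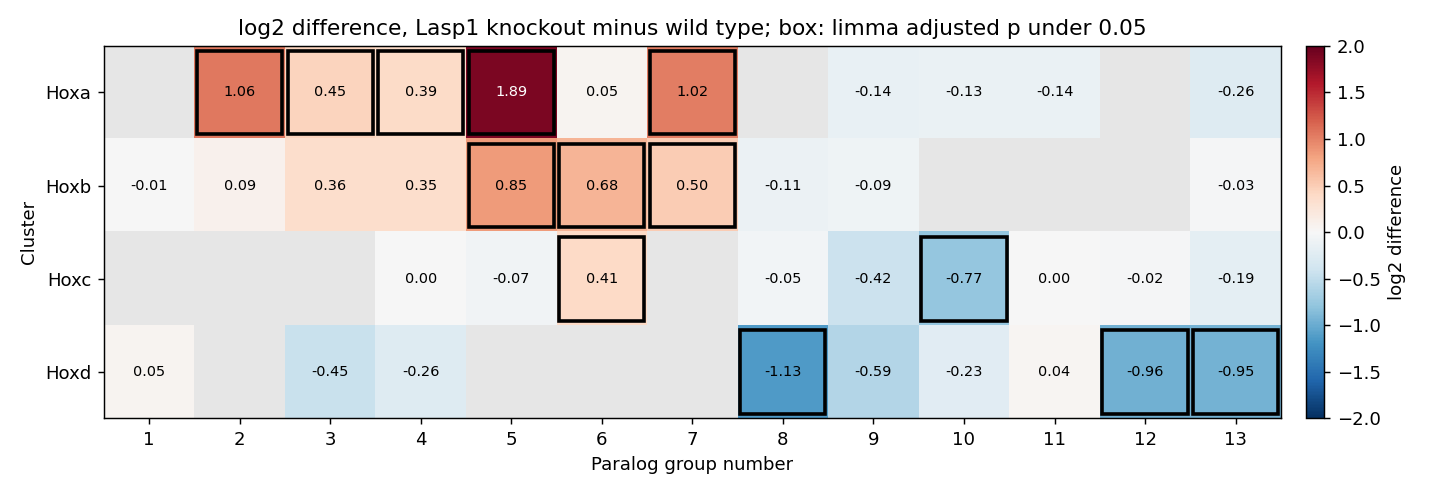
Log2 difference, knockout minus wild type, of each Hox gene by cluster (rows) and paralog group number (columns), with limma-called genes boxed and unmeasured positions in grey. Red cells fill most of the central part of the Hoxa and Hoxb rows, except Hoxa6 (0.05) and Hoxb8 (-0.11). Blue cells fill most of the Hoxd row and the positions of Hoxc9 and Hoxc10.

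Seen by cluster, 5 of 10 Hoxa genes and 3 of 10 Hoxb genes rose and none of either fell, 1 of 9 Hoxc genes rose and 1 fell, and 3 of 9 Hoxd genes fell and none rose. The median log2 differences were 0.22 in Hoxa, 0.22 in Hoxb, -0.05 in Hoxc and -0.45 in Hoxd. Seen by paralog class, 2 of 7 anterior genes rose, 7 of 15 central genes rose and 1 fell, and 3 of 16 posterior genes fell, with medians of 0.09, 0.35 and -0.17. Every rise lay in groups 2 to 7 and every fall in groups 8 to 13. No posterior gene of any cluster rose, and 15 of 16 had a negative log2 difference, Hoxd11 being the exception. Of all genes 58.0% had a negative difference, and of all bright genes 67.9%, with a median of -0.10. Only 7 of the 16 posterior genes were bright, and all 7 were negative, while dim ones such as Hoxc11, Hoxc12 and Hoxb13 lay within 0.03 of 0. Among the bright ones, Hoxd12, Hoxd13 and Hoxa9 passed the limit only through wild type, with knockout means of 1845, 1363 and 1963. The limit thus favoured a negative sign for them. The count of negative posterior genes was also 15 after quantile normalization and after background correction, and it ran from 12 to 16 in the other fits that kept all 16 genes. In none of the 14 alternatives was a Hoxa or Hoxb gene called lower, or a Hoxd gene or a posterior gene of any cluster called higher. Hoxd8 was the only central gene that fell.

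Cluster and paralog number are not independent in this set, because Hoxd has no gene in groups 5 to 7 and Hoxc none in groups 1 to 3. Hoxa and Hoxd share groups 3 and 4 among the lower numbers measured. There Hoxa3, by 1 of its 4 probes, and Hoxa4 rose, while Hoxd3 and Hoxd4 had negative differences that did not pass, and these gaps were not tested. The anterior Hoxa genes and the anterior Hoxd genes had medians of 0.75 (2 genes) and -0.20 (2 genes), and the central ones 0.70 (4 genes) and -0.69 (2 genes). The anterior sets share only group 3 and the central sets only group 4. Of the central Hoxd genes, Hoxd4 was at -0.26 and Hoxd8 at -1.13. Hoxd8 lies in group 8, where Hoxa has no gene and no measured Hox gene had a positive difference. These medians thus mix cluster with paralog position. As a description of the 38 values, the cluster accounted for 37.5% of their variance, the class for 24.9% and both together for 52.3%. For the 19 bright genes the shares were 67.0%, 37.9% and 77.8%. The limit for bright genes bears on these shares. Hoxa2 and Hoxb4 passed it only through knockout (wild-type means 1795 and 1883), which favoured a positive sign. Hoxd3 (knockout mean 1925), Hoxa9, Hoxd12 and Hoxd13 passed it only through wild type, which favoured a negative sign. Cluster has 4 levels and class 3, so the former has more freedom to follow the values. The class share also depends on its borders, which place the falling Hoxd8 among the central genes. With borders at groups 1 to 7 and 8 to 13, 9 of 19 genes rose and 0 fell in the former. In the latter 4 of 19 fell and 0 rose. Variance shares for those borders were not computed, so these shares do not rank cluster above paralog position. Across all 38 genes Spearman's rho between paralog number and log2 difference was -0.53, and within clusters it was -0.79 in Hoxa (n = 10), -0.33 in Hoxb (n = 10), -0.27 in Hoxc (n = 9) and -0.38 in Hoxd (n = 9). Neighbouring genes share regulatory regions and all genes share the same 6 arrays, so these values have no p.

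**Figure D4:**
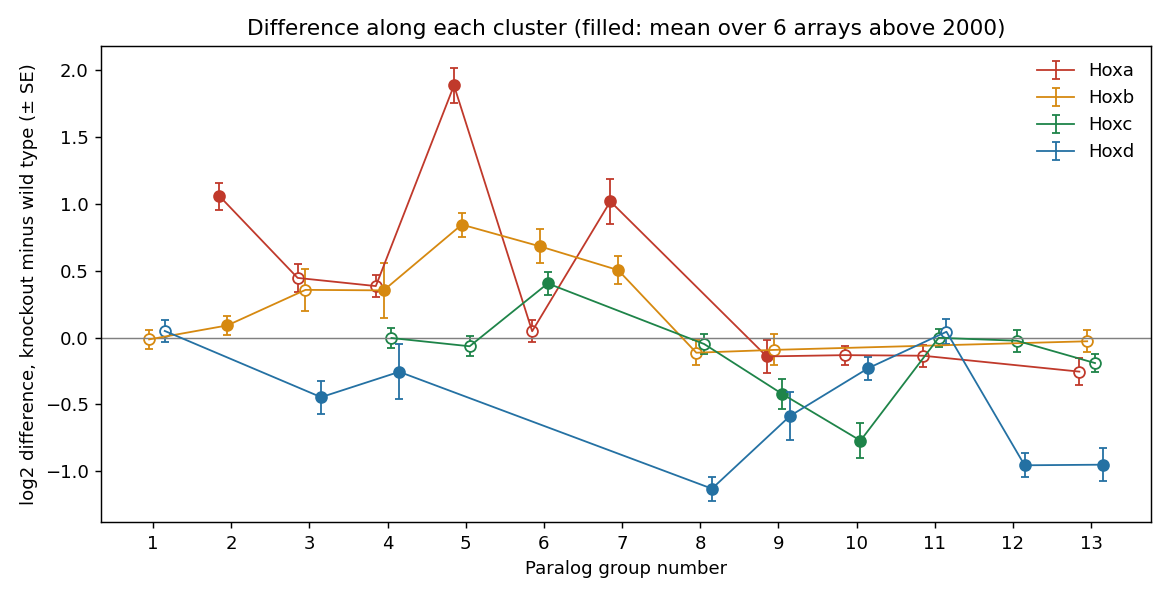
Log2 difference (knockout minus wild type, ± SE from limma) against paralog group number, with a line for each cluster; filled points have a mean over the 6 arrays above 2000 and open points lie below it. Hoxa and Hoxb lie above 0 between groups 2 and 7 and between 0 and -0.26 from group 8 on, and Hoxd lies below 0 at each filled point. Hoxd3, Hoxd12 and Hoxd13 are filled only through their wild-type arrays, which favours a negative sign.

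Bright genes were also set side by side in pairs. The limit for bright genes favoured a positive sign for Hoxa2 and Hoxb4. It favoured a negative sign for Hoxa9, Hoxd3, Hoxd12 and Hoxd13, so the counts of signs below are partly set by it. In the 9 pairs of bright paralogs from different clusters, the median gap between the log2 differences was 0.51, and 1 pair had opposite signs (Hoxb4 at 0.35 and Hoxd4 at -0.26, neither of which passed). In the 40 pairs within a cluster the median gap was 0.45, and 5 pairs had opposite signs. In the 122 pairs that shared neither cluster nor paralog group the gap was 1.06, and 84 pairs had opposite signs. The difference between these pair sets was not tested, since the pairs share genes. Within paralog groups the sizes differed: Hoxa5 rose more than Hoxb5 (1.89 and 0.85), Hoxa7 more than Hoxb7 (1.02 and 0.50), and Hoxa2 rose where Hoxb2 did not pass (1.06 and 0.09), though no test of these gaps was made. Hoxc10 and Hoxd10 were both lower, at -0.77 and -0.23.

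Hox proteins bind DNA together with the TALE homeodomain proteins of the PBX, MEIS and PREP families, and 8 genes of these families were measured. Meis2 rose, from 23234, 25487 and 24730 to 32253, 36382 and 32562 (0.46 ± 0.08, limma adjusted p = 0.00933), and 7 did not pass. Its groups were separate, and the call was lost with background correction, with the replicate block and without wild type replicate 3. Meis1 read 17532, 21124 and 19259 against 23980, 29267 and 21058 (0.35 ± 0.12, limma adjusted p = 0.152). The family median was 0.05. Of all genes 6.28% were called, and of all bright genes 12.8%, and a single call among 8 genes lies near these shares.

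Among 15 measured upstream regulators, which include the caudal-type factors and the retinoic acid receptors and enzymes, 1 fell and 14 did not pass. Over all genes 6.28% were called, and over all bright genes 12.8%. The counts in this list and in the chromatin lists below were not tested against those shares. The retinoid X receptor gene Rxra fell slightly (-0.32 ± 0.07, limma adjusted p = 0.0212, with 0.00513 to 0.119 over its alternatives). Only 3 of these 15 genes were bright. Polycomb proteins keep Hox genes silent, and limma called 0 of 23 measured genes of this group, with 1 higher and 3 lower at an unadjusted p under 0.05. Of 17 Trithorax, CTCF and cohesin genes, which keep Hox genes active or separate their domains, 2 fell and 15 did not pass. These were Ctcf (-0.44 ± 0.09, limma adjusted p = 0.0216) and Dpy30, a subunit of the H3K4 methyltransferase complexes (-0.42 ± 0.10, limma adjusted p = 0.0346). The calls among the 40 chromatin genes moved with the setting, from 2 falls to 8 falls and 1 rise with array weights, where falls over all genes went from 778 to 2282. There were 0 falls with background correction, with the replicate block and when wild type replicate 3 or either of knockout replicates 2 and 3 was left out, and 5 when wild type replicate 1 was left out.

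Of 17 measured genes beside the clusters, 1 rose and 1 fell, where 6.28% of all genes and 12.8% of all bright genes were called. The counts here were not tested against those shares. Skap2, beyond the anterior end of Hoxa, read 17002, 18469 and 17504 in wild type and 23833, 31203 and 22021 in knockout (0.53 ± 0.12, limma adjusted p = 0.0363). Snx10, beyond Skap2, read 14014, 14550 and 12684 against 11256, 10433 and 9271 (-0.42 ± 0.09, limma adjusted p = 0.0303). Both calls were lost in 5 of 6 fits with 1 array left out, and the mean over the Snx10 probes was -0.15. Evx1 and Evx2, the homeobox genes at the posterior ends of Hoxa and Hoxd, were dim in both genotypes and did not pass (-0.10 and 0.04). Hoxb and Lasp1 lie on the same chromosome, number 11. Of 29 measured genes between Hoxb1 and Lasp1, limma called 0, with 4 higher and 2 lower at an unadjusted p under 0.05 and a median log2 difference of 0.03.

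Some marker genes of fibroblasts and of other cell types moved with genotype as well. The summed intensity of 8 fibroblast markers was 868406 to 987029 in wild type and 725071 to 779634 in knockout, and 3 of them fell (Col1a2, Pdgfrb and Thy1). The sum of 6 epithelial markers was 20052 to 25092 in wild type and 8144 to 8354 in knockout, and 2 of them, Krt14 and Krt8, fell. Most of this drop came from Krt14, the only bright one, with means of 15557 in wild type and 2565 in knockout. Krt8 had means of 2237 and 1370. Epcam, Cdh1, Krt5 and Krt18 were dim and did not pass. Of these, Krt18 and Cdh1 had positive log2 differences (0.18 and 0.04), and the Krt18 groups were separate. The sum thus describes mainly Krt14. Of 5 chondrocyte markers Col2a1 rose and Sox9 fell, of 4 adipocyte markers Adipoq fell, of 5 neural markers Sox10 fell, of 5 skeletal muscle markers Actc1 rose and of 5 measured leukocyte markers Lyz2 rose. The other members of these lists did not pass, and 6.28% of all genes were called. Many members were dim, among them Acan, Matn1, Fabp4, Plin1, Myod1, Myog, Myf5, Ptprc, Adgre1, Csf1r, Itgam and the called Actc1. Single calls thus do not describe a cell type. Limma called 0 of 6 endothelial markers (1 higher and 1 lower at an unadjusted p under 0.05) and 0 of 2 measured erythroid markers (0 at an unadjusted p under 0.05), and none of these 8 genes was bright. Their part in the Hox differences was not tested. In bulk RNA, a change in the number of cells that express a Hox gene and a change in its level per cell cannot be told apart.

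The direction of all 13 called genes held in all 14 alternatives. Their genotypes were separate, so leaving out or weighting arrays could not turn a sign. The filter on dim genes, the robust trend and the replicate block leave the difference itself unchanged. Only background correction, quantile normalization and averaging of probes could have turned a direction. Of the 13 genes, 6 (Hoxa2, Hoxa5, Hoxb5, Hoxd8, Hoxd12 and Hoxd13) were called in each of the 14. Hoxa7 and Hoxc10 lost the call with the replicate block and without knockout replicate 3. Hoxa3, Hoxa4, Hoxb6, Hoxb7 and Hoxc6 were called in 6 to 10 of the 14. Leaving out wild type replicate 3 gave 4 rises. Leaving out knockout replicate 1 or 2 gave 5 rises each, and leaving out knockout replicate 3 gave 3. In these 4 fits the rises over all genes were 207, 273, 280 and 219, against 418 with all arrays. Leaving out wild type replicate 1 gave 7 falls, while falls over all genes went from 778 to 1217. Quantile normalization gave 9 rises and 7 falls of Hox genes, and 1009 rises and 1083 falls of all genes, against 418 and 778 in the deposited scaling. Without both arrays of highest upper quartile 10 rose and 5 fell, with 658 rises and 1042 falls of all genes. Background correction raised the fold of Hoxd13 from 1.94 to 2.80, of Hoxa2 from 2.08 to 2.69, of Hoxd12 from 1.94 to 2.46 and of Hoxa3 from 1.36 to 1.93.

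**Figure D5:**
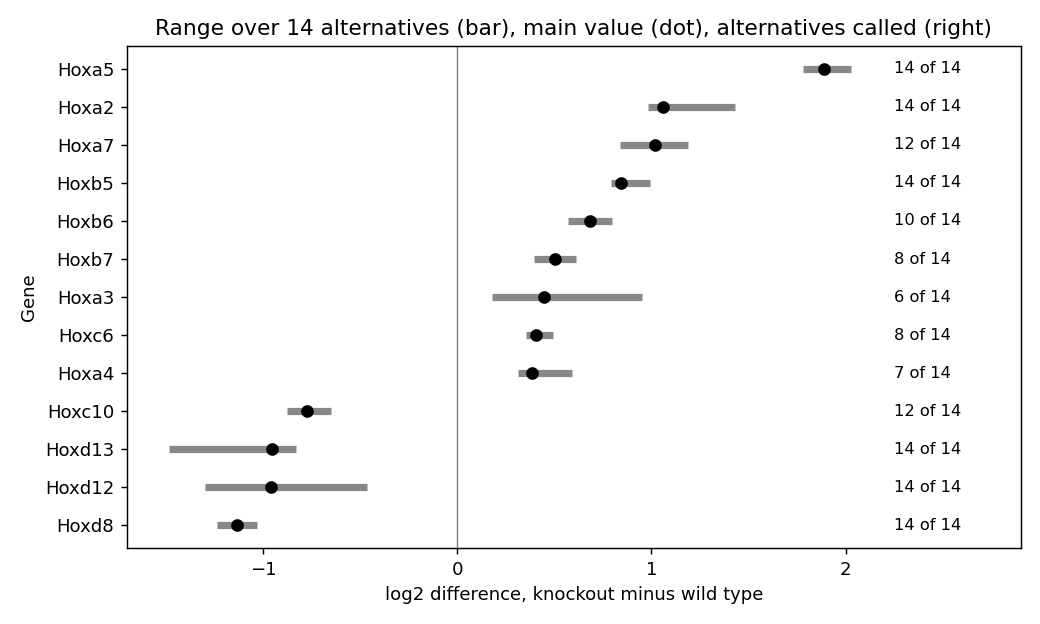
For each of the 13 called Hox genes, the main log2 difference (dot), the range over 14 alternatives (bar), and the number of alternatives in which limma called the gene (right). No bar crosses 0, and 6 genes were called in 14 of 14. With separate genotypes, only background correction, quantile normalization and averaging of probes could have moved a bar across 0.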

How the data were processed

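RNA of 3 wild-type and 3 Lasp1 knockout fibroblast samples was measured on Illumina bead arrays. The authors deposited linear-scale intensities per probe, and every array has a median of 1000 over 45281 probes; the smallest value is 593, and values near 0 are absent. The scanner, software and background handling: not given in the sources used here. Arrays give no counts, and their number limits the precision. No column of another series was present.

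Of the probes 34885 name 1 gene in the platform annotation, 18 several and 10378 none; the last 2 kinds were left out. Intensities were taken to log2 without further scaling. Genotype was the only term of a limma fit (version 3.58.1, R 4.3.3; lmFit, eBayes) over 19057 genes, with 4 residual and 5.13 prior degrees of freedom. Two-sided p-values were Benjamini-Hochberg adjusted across these genes, and 0.05 was the threshold. Log2 differences are knockout minus wild type. The fit was tested on simulated data.

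The members, the gene lists and the tests were chosen with earlier results of these data known. Every Hox gene was named; per-array values were printed for called genes and for those above 2000 in a genotype's mean, and from each list the called members, at most 3 per direction. Values of Hoxa6, Meis1, Evx1, Evx2, Krt18 and Cdh1 and the names of other uncalled markers fall outside this rule. They were chosen after their values were seen. Gene order and names came from RefSeq (GRCm38.p6).

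Alternatives were normexp background correction (offset 50), quantile normalization, a filter on dim genes, array weights, a robust trend in the variance (with statmod 1.5.0), averaging each gene's probes, a block for the replicate number, each array left out, and, added after the data had been seen, both arrays of highest upper quartile left out.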

Additional observations from a re-analysis of the deposited data

How the results depend on the processing

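Hox rises numbered 4 with normexp and 3 with the replicate block, and falls 7 after quantile normalization and 8 with array weights; leaving out 1 array gave 3 to 11 rises and 3 to 7 falls. Replicate numbers did not pair the arrays: same-numbered deviations correlated at -0.41, -0.34 and 0.22, while wild type 2 and knockout 1 correlated at 0.47, and the block cut all calls from 1196 to 415. Calls over all genes were 538 with normexp, 2092 with quantile normalization, 3267 with array weights, and 511, 617 and 463 without wild type replicate 3, knockout replicate 2 and knockout replicate 3. The filter on dim genes kept 28 Hox genes. With it the medians were 0.45 (Hoxa), 0.36 (Hoxb), -0.12 (Hoxc), 0.36 (anterior) and -0.26 (posterior), which rests on fewer members. With normexp they were 0.34 (Hoxa), -0.15 (Hoxc), -0.63 (Hoxd), 0.14 (anterior) and -0.43 (posterior), with the mean of all probes 0.084 (Hoxb) and 0.11 (Hoxa), with quantile normalization 0.17 (anterior), and without both arrays of highest upper quartile 0.14 (anterior); the cause was not tested. With 1 array left out the medians ran from -0.59 to -0.35 in Hoxd, 0.063 to 0.13 in the anterior class, 0.14 to 0.27 in Hoxa, 0.15 to 0.33 in Hoxb, -0.07 to -0.03 in Hoxc, 0.19 to 0.39 in the central class and -0.23 to -0.16 in the posterior class. With borders at groups 1 to 7 and 8 to 13 the medians were 0.36 and -0.14. No alternative turned the direction of a called Hox gene, which only normexp, quantile normalization and averaging of probes could have done. With 3 arrays a group and no detection calls used here, dim Hox genes could not be followed.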
